A study of Mus musculus with 15 samples.

Results

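Macrophages are the resident phagocytes of the lung, and 39 genes that they express were followed here in lung and lung tumours of the mouse. The genes were chosen by name: 13 are tied to the alveolar macrophage, 10 to the lysosome and 16 to myeloid cells in general. Of these, 37 were measured, among 18193 genes in all. Ear2 and Spp1 were not analysed here, because the probe annotation used does not list them. RNA was measured on Affymetrix expression arrays, on which a probe set (a group of short probes for 1 transcript) gives a brightness, the intensity. The study asked at a late stage which genes differ between lung tumours and wild type lung, and at an early stage which genes differ before tumours start.

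The groups used here hold 3 arrays each. The first holds lung tumours of double mutant mice at 12 months of age, with each array made from a piece of a single tumour. It is set against wild type lung at 12 months. The second holds lung of double mutant mice at 7 months of age, set against wild type lung at 7 months. The genotype of the double mutants includes homozygous deletion of Smad4 (Smad4d/d), the gene for a mediator of TGF-beta and BMP signalling, so changes in these mice are not attributed to that gene by itself. The strain is given as a mixed background, with normal feed and no treatment. The sources used here do not name the cells in which the deletions were made. A lung array was made from part of a whole lung, so it averages over all cell types of the organ.

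The alveolar macrophage lives on the air side of the alveolus, where it clears surfactant lipids and inhaled particles. It matures after birth under GM-CSF, which induces the nuclear receptor Pparg, and it carries Siglecf, Itgax (CD11c) and the scavenger receptor Marco. Interstitial macrophages and monocytes lie in the tissue and the vessels and are marked by other genes, such as C1qa and Ccr2. Lysosomal enzymes occur in most cells and are abundant in phagocytes, while the receptors and adaptors of the myeloid lineage are shared by macrophages, monocytes and neutrophils. In such bulk RNA, fewer macrophages and less RNA of a gene per macrophage cannot be told apart.

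Array medians lay between 90.9 and 99.5 intensity units, and arrays of a group correlated with r between 0.982 and 0.994. Smad4 intensity was 3303 ± 364 in tumours and 2819 ± 137 in 12-month wild type lung, and 3292 ± 109 in 7-month double mutant lung and 3220 ± 73.7 in 7-month wild type lung (SD, n = 3 each; adjusted p = 0.213 and 0.799). The sources used here do not say whether its probes lie within the deletion, so these values do not check the genotype. The sex of the mice is not in the labels. Xist, transcribed from the inactive X chromosome of females, lay between 64.1 and 237 on the 3 tumour arrays. Wild type lung at 12 months had 6786, 69.8 and 6917. The Y-linked Eif2s3y had 1567, 1908 and 1640 in tumours and 20.6, 1796 and 13.7 in 12-month wild type lung. By these genes the tumours and wild type array 2 were male and wild type arrays 1 and 3 female, so tumour and sex are partly confounded at 12 months. At 7 months, wild type array 3 had 48.1 for Xist and 1504 for Eif2s3y, so by these genes it was male. No double mutant array was like it, so the sexes are unbalanced in the 7-month comparison and in the difference of effects too. The 3 double mutant arrays and wild type arrays 1 and 2 at 7 months had both Xist (4516 to 4959) and the Y-linked Eif2s3y (727 to 923). They hold RNA of both sexes, and the labels do not say how many animals were pooled. P-values therefore measure the spread between these arrays, which may be partly technical.

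At 7 months, double mutant array 3 and wild type array 1 stood apart from the other arrays of their groups in F13a1, Ccr2 and some other myeloid genes. F13a1, made by monocytes and some macrophages, had 503, 635 and 2005 intensity units in double mutant lung and 2000, 540 and 549 in wild type lung. Ccr2, the monocyte chemokine receptor, had 265, 285 and 790 in double mutant lung and 696, 230 and 233 in wild type lung. Among the members, Msr1 and Fcgr1 followed the same arrays. Csf3r, counted here as a neutrophil gene, did so too, with 192, 209 and 596 in double mutant lung and 793, 267 and 238 in wild type lung. Not all monocyte genes followed. Cx3cr1 had 75.25, 110 and 72.3 in double mutant lung and 90.3, 92.5 and 82.2 in wild type lung. At 12 months, tumour array 3 was the lowest of the tumours for Olr1, Marco, Chil3 and Atp6v0d2, and wild type array 3 was the highest for most members.

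In tumours at 12 months, 20 of the 37 measured members were lower than in wild type lung, 0 were higher and 17 did not pass the test (limma, two-sided, Benjamini-Hochberg adjusted p under 0.05 over all genes). Among all genes tested, 6.02% were lower and 9.23% higher. The median log2 change was -0.76 over the members and 0.01 over all genes. By role, 6 of 12 alveolar macrophage members, 7 of 10 lysosomal members and 7 of 15 general myeloid members were lower, with median log2 changes of -0.71, -0.99 and -0.65. All 3 tumours lay below all 3 wild type lungs for 28 of the 37 members, which is seen for 17.0% of all genes. They lay above them for 1 member, Fcgr1, which is seen for 3723 of the 18193 genes.

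How many members passed depended on single arrays. The count of lower members was 10 without wild type array 1 or without wild type array 3, and 13 without wild type array 2 or without tumour array 3. Set against wild type array 2 alone, the one that lacks Xist as the tumours do, 9 members were lower and 31 of 37 had a negative log2 change; this alternative was chosen after seeing the data. That arm is 1 array, assumed to vary like the other groups, so the 9 is not a measure of what the sex of the mice contributes. Pparg, Mertk and Cybb passed under every alternative run, and all 20 lower members kept their sign. Itgax, Cd68, Ctsk, Trem2 and Fcer1g also passed with any single array left out. Olr1, Atp6v0d2 and Clec7a missed the threshold without any one of the wild type arrays. Gpnmb missed it without any wild type array or tumour array 3, and Abcg1 and Lpl without any wild type array, tumour array 1 or tumour array 3. Ctsd missed it without wild type array 1 or 3 or tumour array 3, Slc11a1 without wild type array 1 or 3 or any tumour array, and Ctss without any array. Tlr2 missed it without wild type array 3, Fcgr3 without tumour array 1 or 3, and Tyrobp without wild type array 1 or tumour array 1 or 3.

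**Figure D1:**
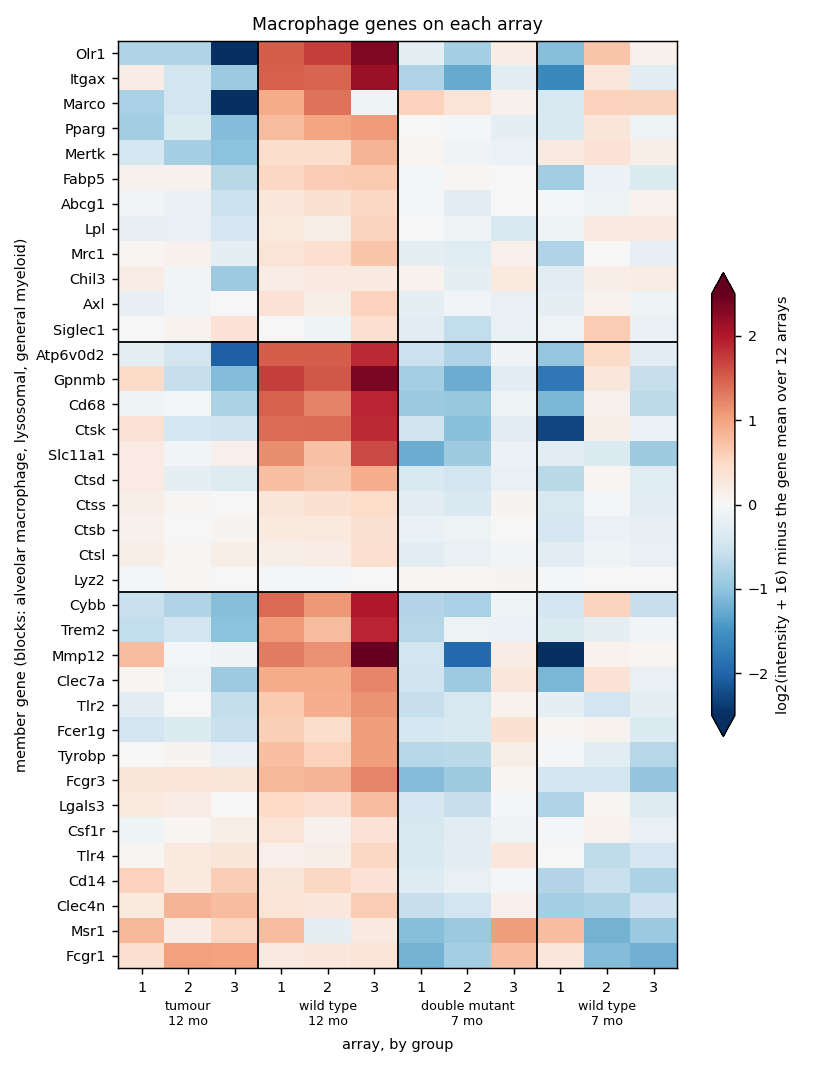
Each cell gives the log2 intensity of 1 member (rows, ordered by role) on 1 of 12 arrays (columns, by group) minus that gene's mean over the 12 arrays. The columns of 12-month wild type lung are the high ones for most members, and 28 of 37 members have all 3 tumours below all 3 of those lungs.

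**Figure D2:**
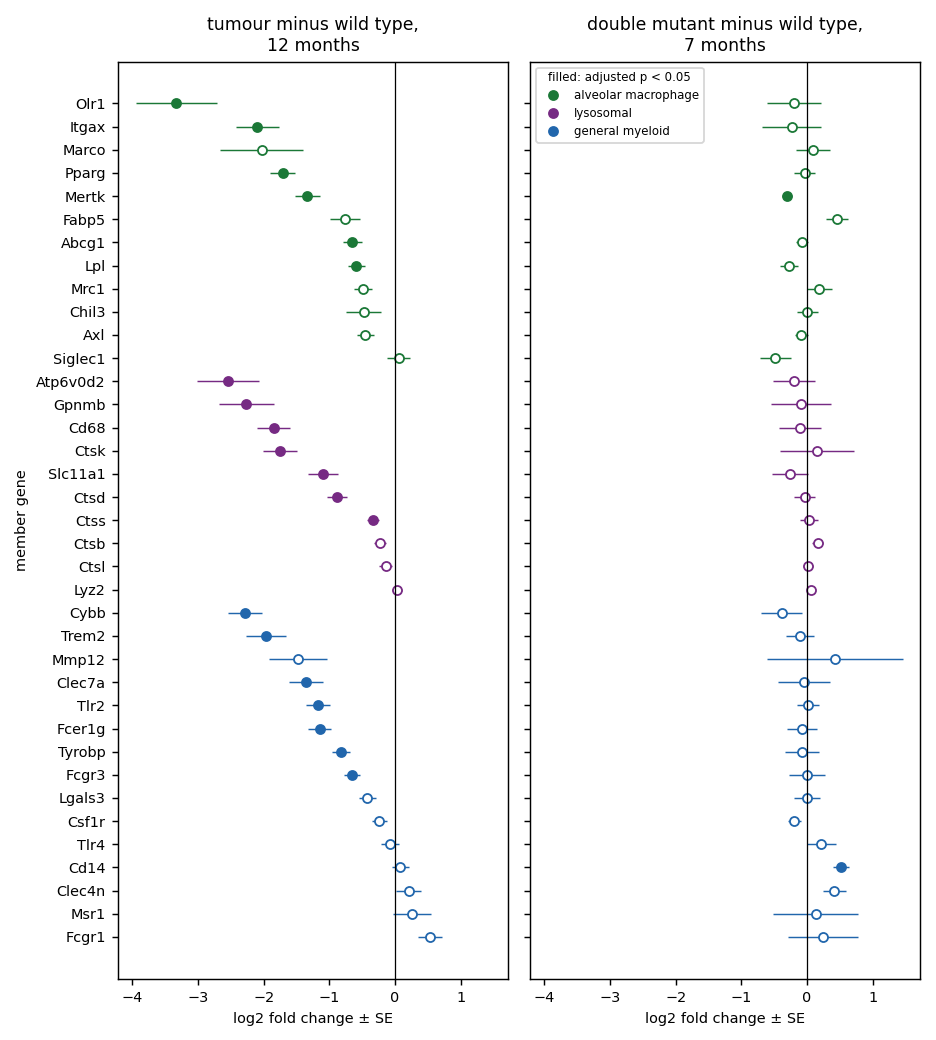
The log2 fold change of each member with its standard error is plotted for tumours over 12-month wild type lung and for double mutant over wild type lung at 7 months, with filled points for an adjusted p under 0.05. At 12 months 20 members are filled, all left of 0; at 7 months Mertk is filled left of 0 and Cd14 right of it.

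RefSeq promoters (GRCm38.p6) were found for 27 of the 39 members, and the 250 bases before each start were searched on both strands for PU.1 (GAGGAAGT), an E-box (CACGTG) and AP-1 (TGANTCA). PU.1 is a master factor of myeloid cells, the E-box is bound among others by MITF and TFE factors that act on lysosomal genes, and AP-1 stands for the Jun and Fos family. A gene with several promoters was counted once, if any of them matched. AP-1 letters were found in 6 members (Cd68, Cybb, Itgax, Mmp12, Olr1 and Trem2) and in 7.82% of 27025 genes with a promoter. PU.1 letters were found in 2 members (Mmp12 and Spp1) and in 2.79% of all these genes. E-box letters were found in 2 members (Ctsd and Ctsl) and in 6.86%. No match overlapped another. Of the 6 members with AP-1 letters, 5 were lower in tumours, and Mmp12 did not pass the test; of the 19 measured members whose promoter lacks them, 11 were lower, Pparg and Mertk among them. Those 5 are shown as a stretch around the match, on the strand of the gene and read 5′ to 3′, with the AP-1 letters in capitals. Where another transcript of the gene starts further upstream, the stretch was shortened. For Olr1 and Cybb it still lies inside the RefSeq span of the gene, downstream of that other start. Itgax lies at chr7:128129479-128129525 (plus strand), Olr1 at chr6:129507208-129507236 (minus), Cd68 at chr11:69666171-69666334 (minus), Trem2 at chr17:48346377-48346400 (plus) and Cybb at chrX:9469446-9469474 (minus).
Itgax: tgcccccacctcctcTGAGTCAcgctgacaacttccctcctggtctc
Olr1: cccgcgacggtTGAGTCAtcctctgctag
Cd68: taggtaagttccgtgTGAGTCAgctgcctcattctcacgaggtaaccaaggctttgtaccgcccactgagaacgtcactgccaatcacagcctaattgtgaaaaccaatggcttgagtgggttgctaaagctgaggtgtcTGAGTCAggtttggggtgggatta
Trem2: gcccttctccctcctTGAATCAca
Cybb: ttacttgtgacTGAATCAcaagatctttt
The first base of the match lay 56 bases before the start in Itgax, 60 in Olr1, 149 and 24 in Cd68, 9 in Trem2 and 139 in Cybb. In 4 of the 6 matches shown the central base is G (TGAGTCA), and in Trem2 and Cybb it is A (TGAATCA). These are matches of letters and not measured binding sites.

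Among the alveolar macrophage members, Pparg, the receptor that directs the alveolar macrophage programme, had 165, 242 and 141 intensity units in tumours and 557, 639 and 673 in wild type lung at 12 months. The groups did not overlap, and the highest tumour had less than the lowest wild type lung. Pparg was 3.28-fold lower in tumours (log2 change -1.71 ± 0.19 SE, adjusted p = 0.00687). Mertk, a receptor for the uptake of dying cells, had 850.2, 647 and 563 in tumours and 1577, 1573 and 2087 in wild type lung. It was 2.52-fold lower (log2 change -1.33 ± 0.19, adjusted p = 0.0105). Itgax, the integrin subunit CD11c carried by alveolar macrophages and dendritic cells, had 1306, 829 and 601 in tumours and 3244, 3176 and 5151 in wild type lung. Every tumour was below every wild type lung, with a 4.27-fold lower level (log2 change -2.09 ± 0.32, adjusted p = 0.0127).

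Olr1 (LOX-1), a scavenger receptor for oxidised lipoproteins, had the most negative log2 change of all members. It had 210.2, 212 and 34.0 in tumours and 1079, 1245 and 1877 in wild type lung. Tumour array 3 was far below the other 2 tumours, and the groups did not overlap. The level was 10.1-fold lower in tumours (log2 change -3.33 ± 0.61, adjusted p = 0.0203). Abcg1, a cholesterol exporter, had 2732, 2577 and 1982 in tumours and 3505, 3761 and 4130 in wild type lung, and was 1.57-fold lower (adjusted p = 0.0324). Lpl, the lipoprotein lipase, had 4219, 4283 and 3640 in tumours and 5769, 5422 and 7177 in wild type lung, and was lower by test too (log2 change -0.59 ± 0.13, adjusted p = 0.0352). Both changes were small beside those of Olr1 and Itgax, but no tumour reached the lowest wild type lung.

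The other 6 measured alveolar macrophage members did not pass the test, with adjusted p between 0.059 and 0.873. Their log2 changes ran from -2.03 for Marco to 0.05 for Siglec1 (CD169), which also marks other resident macrophages. Marco had 329, 417 and 82.1 in tumours and 1130, 1532 and 549 in wild type lung (log2 change -2.03 ± 0.64, adjusted p = 0.0847). Its groups did not overlap, but the arrays within each group were far apart. Fabp5, a fatty acid binding protein, had 7909, 7896 and 4563 in tumours and 10573, 11404 and 11556 in wild type lung (log2 change -0.76 ± 0.22, adjusted p = 0.0707). Mrc1 (the mannose receptor), Axl (a receptor related to Mertk) and Chil3 (Ym1, a secreted chitinase-like protein) had log2 changes of -0.49, -0.46 and -0.48. Chil3 reached 14292 on an array whose brightest probe set had 16535, so it lay near the top of the scale. It also has the near-identical neighbour Chil4, whose RNA its probes may bind.

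**Figure D3:**
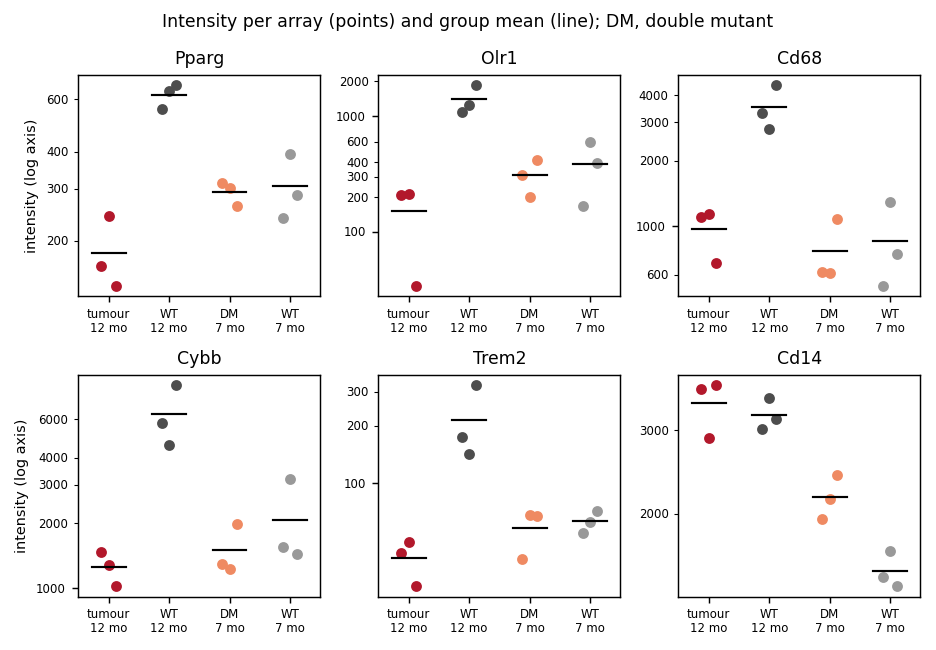
Intensity of 6 members is plotted on a log axis for tumours and wild type lung (WT) at 12 months and for double mutant (DM) and wild type lung at 7 months, with 1 point per array and a line at the group mean. For Pparg, Olr1, Cd68, Cybb and Trem2 all 3 tumours lie below all 3 wild type lungs at 12 months, whereas Cd14 differs in the 7-month pair.

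The lysosomal members had the most negative median. Cd68, a lysosomal membrane protein widely used to stain macrophages, had 1106, 1144 and 678 intensity units in tumours and 3313, 2811 and 4474 in wild type lung at 12 months. The groups were well apart, and Cd68 was 3.60-fold lower in tumours (log2 change -1.85 ± 0.26, adjusted p = 0.0103). Ctsk, the collagen-cleaving cathepsin K, had 2850.1, 1634 and 1573 in tumours and 5860, 5918 and 8158 in wild type lung, and was 3.36-fold lower (log2 change -1.75 ± 0.26, adjusted p = 0.012). Atp6v0d2, a subunit of the proton pump that acidifies lysosomes, had 1437, 1224 and 395 in tumours and 4847, 4824 and 6167 in wild type lung. It was 5.81-fold lower (log2 change -2.54 ± 0.47, adjusted p = 0.0204), the most negative log2 change among the lysosomal members, and its second probe set had a log2 difference of -2.69.

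Gpnmb, a glycoprotein of lysosomes and related organelles, had 1925, 912 and 642 in tumours and 4550.4, 4032 and 7069 in wild type lung, and was 4.80-fold lower (adjusted p = 0.0206). Its second, dim probe set had a log2 difference of -0.49. Ctsd, the aspartic protease cathepsin D, had 6320, 4719 and 4391 in tumours and 9242, 8732 and 10327 in wild type lung, and was 1.85-fold lower (adjusted p = 0.018). Slc11a1 (Nramp1), a metal transporter of the phagosome, had 480, 396 and 455 in tumours and 954, 698 and 1336 in wild type lung, and was 2.13-fold lower (adjusted p = 0.0293). In each of these the groups did not overlap. Ctss, cathepsin S, was 1.26-fold lower (log2 change -0.34 ± 0.09, adjusted p = 0.0495).

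Ctsb and Ctsl, cathepsins of many cell types, had log2 changes of -0.23 and -0.14 and did not pass the test (adjusted p = 0.128 and 0.404). Their dimmer probe sets did not all give the same picture: 4 further ones for Ctsb had log2 differences from -0.75 to -0.24, and 1 for Ctsl had 0.42. Lyz2, the lysozyme of myeloid and alveolar type 2 cells, had 12582, 13195 and 12677 in tumours and 12469, 12543 and 12665 in wild type lung (log2 change 0.03 ± 0.07, adjusted p = 0.823). It lay near the top of the scale on every array, and its probes may also bind RNA of its near-identical neighbour Lyz1.

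Among the general myeloid members, Cybb, the catalytic subunit of the phagocyte oxidase, had the smallest adjusted p of all members. It had 1464, 1279 and 1022 intensity units in tumours and 5773, 4595 and 8643 in wild type lung at 12 months. No tumour came near a wild type lung, and Cybb was 4.88-fold lower (log2 change -2.29 ± 0.25, adjusted p = 0.00661). Trem2, a lipid-sensing receptor, was dim, with 43.5, 49.7 and 29.1 in tumours and 175, 142 and 326 in wild type lung. It was 3.89-fold lower (log2 change -1.96 ± 0.30, adjusted p = 0.013). A second Trem2 probe set averaged only 4.43 units and showed no such difference, so the Trem2 result rests on 1 probe set.

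Adaptor chains that carry the signals of many myeloid receptors were lower as well. Fcer1g, the common Fc receptor gamma chain, had 1301, 1434 and 1231 in tumours and 2745, 2466 and 3784 in wild type lung, and was 2.22-fold lower (adjusted p = 0.0118). Tyrobp (DAP12), the adaptor of Trem2, had 3182, 3341 and 2837 in tumours and 5355, 4767 and 6548 in wild type lung, and was 1.77-fold lower (adjusted p = 0.0162). Both separated the groups, with tumours close to one another. Tlr2, the receptor for bacterial lipoproteins, had 348, 419 and 274 in tumours and 673, 799.5 and 929 in wild type lung, and was 2.26-fold lower (adjusted p = 0.0132). Fcgr3, a low-affinity IgG receptor, had 2609, 2669 and 2604 in tumours and 3778, 3809 and 4941 in wild type lung, and was 1.57-fold lower (adjusted p = 0.021). Clec7a (dectin-1), the receptor for fungal beta-glucan, was 2.56-fold lower (log2 change -1.36 ± 0.26, adjusted p = 0.0213).

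The other 8 measured general myeloid members did not pass, with log2 changes from -1.48 for Mmp12 to 0.53 for Fcgr1 and adjusted p between 0.0748 and 0.745. Mmp12, the macrophage elastase, had 1650.4, 920.4 and 893 in tumours and 2371, 2139 and 5972 in wild type lung, where array 3 was far above the others. Csf1r, the receptor that macrophages need for survival, had 3090.5, 3454 and 3705 in tumours and 4217, 3613 and 4269.8 in wild type lung, and these ranges overlapped (log2 change -0.24 ± 0.11, adjusted p = 0.205). Fcgr1, the high-affinity IgG receptor of monocytes and macrophages, had 230.3, 365 and 363 in tumours and 202, 209 and 223 in wild type lung (log2 change 0.53 ± 0.18, adjusted p = 0.105). These 3 were named after their values were seen. Cd14 (lipopolysaccharide co-receptor), Tlr4 (lipopolysaccharide receptor), Clec4n (dectin-2), Msr1 (a scavenger receptor) and Lgals3 (a galactose-binding lectin) had log2 changes of 0.08, -0.08, 0.20, 0.26 and -0.42.

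Other genes of the same cells were read from lists that hold none of the members. Of 24 measured further alveolar macrophage genes, 10 were lower, 4 were higher and 10 did not pass, with a median log2 change of -0.52. Krt79 had 244, 171 and 121 intensity units in tumours and 960, 1182 and 1447 in wild type lung at 12 months, and was 6.36-fold lower (adjusted p = 0.00563). Siglecf, a defining surface marker of the alveolar macrophage, had 86.7, 296 and 67.1 in tumours and 662, 696 and 1004 in wild type lung, and was 5.70-fold lower (adjusted p = 0.0248). Csf2ra, the GM-CSF receptor chain, was 1.80-fold lower (adjusted p = 0.0108) and Plin2, which coats lipid droplets, 1.83-fold lower (adjusted p = 0.0142). The 4 that were higher, Krt19 (3.24-fold), Spint1 (1.74-fold), Perp (2.37-fold) and Net1 (1.32-fold), are also epithelial genes (adjusted p between 0.00573 and 0.018).

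Of 30 further lysosome genes, 12 were lower and 0 higher, with a median log2 change of -0.37. Lipa, the lysosomal acid lipase, was 2.73-fold lower, Ctsz (cathepsin Z) 1.93-fold, Gla (alpha-galactosidase A) 2.42-fold and Mitf, a transcription factor, 1.43-fold (adjusted p between 0.00884 and 0.0229). Of 24 interstitial macrophage and monocyte genes, 3 were lower and 2 higher, with a median of -0.01. The lower ones were Adgre1 (F4/80, 1.56-fold, adjusted p = 0.0191), Ace (1.82-fold, adjusted p = 0.0188) and Lyve1 (1.68-fold, adjusted p = 0.0265), and endothelium also expresses Ace and Lyve1. The higher ones were Plac8 (1.78-fold, adjusted p = 0.0142) and F13a1 (2.60-fold, adjusted p = 0.0361). The summed intensity of this list was 40698 to 43057 in tumours and 40772 to 42782 in wild type lung, and these ranges overlapped. Without Ace and Lyve1, left out after their values were seen, the sums were 34523 to 38351 in tumours and 30340 to 33195 in wild type lung. These are 2 of the 3 lower genes, so leaving them out by itself raises tumours against wild type lung, and no conclusion is drawn. The sums also lean on 1 bright gene, Cbr2, with a mean of 11062 in tumours and 10530 in wild type lung. Which cells gave the Cbr2 signal was not tested, so the sums are not read as a measure of these macrophages and monocytes. Of 20 growth factors, receptors and lineage factors of macrophages, 5 were lower and 2 higher. Csf2ra, Csf2rb and Cebpb are also in the list of further alveolar macrophage genes, so the lower Csf2ra and Csf2rb are counted in both lists. Csf1, the ligand of Csf1r, had 338, 346 and 405 in tumours and 642, 688 and 673 in wild type lung, and was 1.81-fold lower (adjusted p = 0.00669). Besides Csf2ra, Tgfb1 was 1.98-fold lower (adjusted p = 0.0189) and Csf2rb, the second GM-CSF receptor chain, 1.64-fold (adjusted p = 0.0304). Runx1 was 1.61-fold higher (adjusted p = 0.0185) and Il13ra1 1.64-fold higher (adjusted p = 0.0198).

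Markers of other cells moved in the same tumours. Of 10 pan-leukocyte genes 4 were lower and 0 higher, with summed intensities of 18767 to 21518 in tumours and 23797 to 28513 in wild type lung. Endothelial genes were lower in 7 of 10, with sums of 9058 to 13727 in tumours and 19286 to 22041 in wild type lung. Airway and squamous epithelial genes were higher in 9 of 10, with sums of 45805 to 49369 in tumours and 27531 to 29659 in wild type lung. Neutrophil genes were higher in 1 of 11 (Ltf), with sums of 16666 to 32233 in tumours and 5628 to 11562 in wild type lung. Without Ltf, which glandular epithelium also makes, the neutrophil sums overlapped, with 7303 to 22292 in tumours and 5325 to 9757 in wild type lung. Ltf is the only gene of this list that passed, so leaving it out by itself lowers tumours against wild type lung, and no conclusion is drawn. Alveolar type 1 genes were lower in 1 of 8, with sums of 20914 to 33442 in tumours and 35698 to 39542 in wild type lung. Alveolar type 2 genes passed in 0 of 7 by limma (1 at an unadjusted p under 0.05), and B and plasma cell genes in 0 of 7 (3 at an unadjusted p under 0.05). Fibroblast genes were higher in 2 of 8 and lower in 2, T and NK cell genes lower in 2 of 9, and dendritic cell genes higher in 1 of 9 and lower in 3. For each of these 5 lists the summed ranges of tumours and wild type lung overlapped. The mean of the 18S ribosomal control probe sets was 1700.1 ± 504 in tumours and 6381 ± 778 in wild type lung (SD, n = 3 each). The 3 prime to 5 prime ratio of Gapdh was 1.37 ± 0.167 in tumours and 1.37 ± 0.0163 in wild type lung. The part of the changed tissue makeup and of the 18S difference in the member results was not tested.

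**Figure D4:**
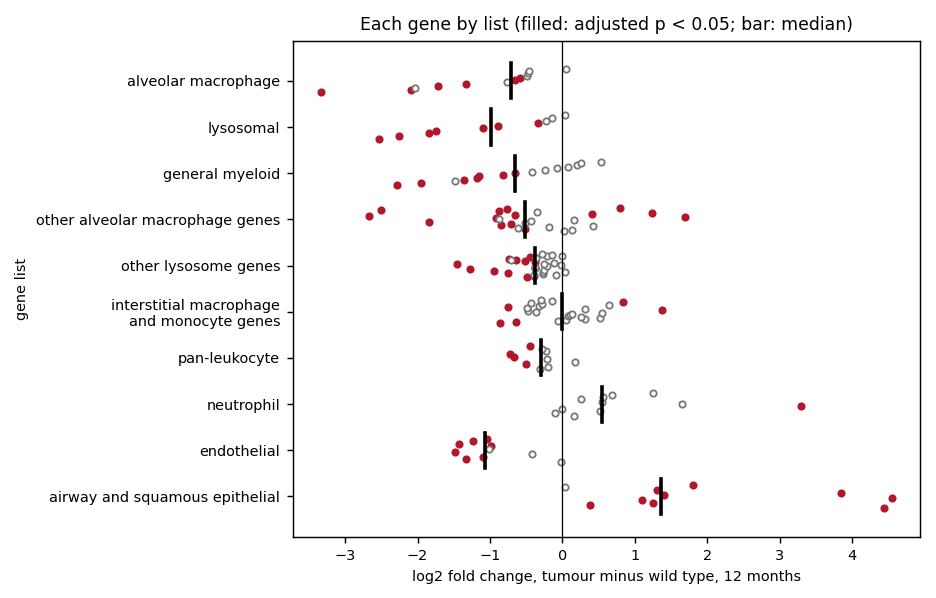
Each point is the log2 fold change of 1 gene in tumours over 12-month wild type lung, by gene list, filled for an adjusted p under 0.05, with a bar at the list's median. The 3 member roles have medians of -0.71, -0.99 and -0.65, and the interstitial macrophage and monocyte genes one of -0.01.

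At 7 months, 1 member was lower in double mutant lung than in wild type lung, 1 was higher and 35 did not pass, where 1.39% of all genes were lower and 6.42% higher. Median log2 changes were -0.08 for alveolar macrophage, -0.01 for lysosomal and 0.00 for general myeloid members. Mertk had 1197, 1088 and 1049 intensity units in double mutant lung and 1359, 1486 and 1306 in wild type lung, and was 1.24-fold lower (log2 change -0.31 ± 0.08, adjusted p = 0.0449). Cd14 had 1947, 2146 and 2415 in double mutant lung and 1473, 1666 and 1403 in wild type lung, and was 1.43-fold higher (log2 change 0.51 ± 0.12, adjusted p = 0.0424). In both genes the groups did not overlap. All 3 double mutant lungs lay on one side of all 3 wild type lungs for 5 members (2 below and 3 above), which is seen for 26.1% of all genes. Without double mutant array 3 and wild type array 1, the arrays high in F13a1 and Ccr2, 0 members passed in either direction. This alternative was chosen after seeing the data. The Mertk call also ended without any single array other than double mutant array 1, and the Cd14 call without wild type array 1 or 3, double mutant array 2 or 3, or 1 array of the other 7-month group. Fitting the 2 groups alone ended both calls. Markers of other cells differed at this age too. Endothelial genes were lower in 2 of 10, with sums of 20461 to 25264 in double mutant lung and 28521 to 29395 in wild type lung. Alveolar type 1 genes were lower in 1 of 8, with sums of 38468 to 43005 in double mutant lung and 46669 to 47591 in wild type lung. Airway and squamous epithelial genes were higher in 5 of 10, with sums of 35580 to 36523 in double mutant lung and 28443 to 30649 in wild type lung. Pan-leukocyte genes passed in 0 of 10 by limma (0 also at an unadjusted p under 0.05). The part of these differences in the Mertk and Cd14 results was not tested.

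In 14 of the 37 members the highest array of a 7-month group had at least 2 times the intensity of the lowest. In the other 23 members both groups were tighter. The share over all genes was not counted, so this spread does not set the members apart. Some of the variable ones are given in full. Cd68 had 618, 610.1 and 1083 in double mutant lung and 531, 1287 and 750.2 in wild type lung. Ctsk had 1563, 1066 and 1836 in double mutant lung and 438, 2482 and 2006 in wild type lung. Itgax had 669, 469.8 and 938 in double mutant lung and 367, 1406 and 936 in wild type lung. In each of these the ranges overlapped, and wild type array 1 was the lowest of the wild type arrays. Among the other lists, 3 of 24 further alveolar macrophage genes were higher (Krt19, Spint1 and Plet1, all also epithelial), as was 1 of 30 lysosome genes (Ctsc, 1.26-fold, adjusted p = 0.037). Of the growth and lineage factors 2 of 20 were higher, Runx1 (1.34-fold, adjusted p = 0.00968) and Il13ra1 (1.51-fold, adjusted p = 0.00972), the 2 that were also higher in tumours. None of the 24 interstitial macrophage and monocyte genes passed by limma, and 4 (16.7%) had an unadjusted p under 0.05, against 23.3% of all genes.

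The difference between the tumour effect and the 7-month effect was tested as a contrast over all 15 arrays, and a negative value means a more negative log2 change in tumours. It was below 0 for 7 members and above 0 for 0 at an adjusted p under 0.05, where 1.41% of all genes were below and 1.75% above. These were Pparg, Mertk, Olr1 and Fabp5 of the alveolar macrophage members and Cybb, Trem2 and Tlr2 of the general myeloid members. Pparg had 313, 302 and 263 intensity units in double mutant lung and 238, 392 and 286 in wild type lung at 7 months, where the groups overlapped, and its difference of effects was -1.68 ± 0.26 (adjusted p = 0.00669). Olr1 had 311, 199 and 419 in double mutant lung and 167, 604 and 393 in wild type lung at 7 months, with a difference of effects of -3.13 ± 0.78 (adjusted p = 0.0496). Cybb had 1296, 1231 and 1988 in double mutant lung and 1549, 3199 and 1447 in wild type lung at 7 months, with a difference of -1.90 ± 0.44 (adjusted p = 0.0375). At 7 months the groups also overlapped for Olr1 and Cybb. Trem2 had 40.2, 68.4 and 67.3 in double mutant lung and 55.4, 63.0 and 72.0 in wild type lung at 7 months, again with overlap. Tlr2 had 277, 315 and 446 in double mutant lung and 354, 298 and 359 in wild type lung at 7 months, with a difference of effects of -1.19 ± 0.26 (adjusted p = 0.0302). Mertk, which was lower in both comparisons, had a difference of -1.02 ± 0.20 (adjusted p = 0.0176), so its change was larger in tumours.

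Fabp5 passed in neither comparison alone but in their difference. At 7 months it had 7105, 7599.9 and 7401 in double mutant lung and 3999, 6671 and 5768 in wild type lung, so that its log2 change was 0.46 ± 0.17 (adjusted p = 0.147), against -0.76 at 12 months. The difference was -1.22 ± 0.29 (adjusted p = 0.0432). Its second probe set had log2 differences of -1.09 at 12 months and 0.47 at 7 months. Of the lysosomal members 0 of 10 passed this test in limma and 7 had an unadjusted p under 0.05 (18.8% of all genes did), with Cd68 and Atp6v0d2 at adjusted p = 0.0559 and 0.0558. The count of 7 was 0 with wild type array 2 as the only 12-month wild type array, a single array assumed to vary like the other groups, and 1 (Pparg) without double mutant array 3 and wild type array 1 at 7 months. With single arrays left out it ranged from 2 to 10, and it was under 5 without any of the 12-month wild type arrays, tumour array 3, wild type array 1 or 3 at 7 months, any double mutant array, or either of 2 arrays of the other 7-month group. Trem2 (-1.85 ± 0.39, adjusted p = 0.0238) kept a negative difference except with its second, near-background probe set (0.30).

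The 2 wild type groups were set side by side as well, without a test, since age and array set cannot be told apart. All 3 wild type lungs at 12 months lay above all 3 at 7 months for 30 of the 37 members and below them for 0, where 30.5% of all genes lay above. By role these were 8 of 12 alveolar macrophage, 9 of 10 lysosomal and 13 of 15 general myeloid members. The median ratio of mean intensities, 12 over 7 months, was 2.04 for all members, 1.41 for alveolar macrophage, 2.74 for lysosomal and 2.17 for general myeloid members. The members lower in tumours were called against the same 12-month wild type arrays, so the 2 comparisons are not independent; 19 of those 20 members lay above, and 11 of the 17 that did not pass.

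Set beside 7-month wild type lung, tumours did not lie uniformly low. The tumour mean was within the range of the 3 wild type lungs at 7 months for 13 members, above it for 15 and below it for 9, and 23.6% of all genes were within. The shares of all genes above and below were not counted, and age and array set cannot be told apart here either. Of the 20 members lower than 12-month wild type lung, 8 were within this range, 4 above and 8 below. Cd68 (tumour mean 976 and 7-month wild type mean 856) and Itgax (912 and 903) were within it, with a lower end set by wild type array 1 (531 and 367). Pparg (183 and 305), Mertk (687 and 1384) and Olr1 (152 and 388) were below it. Fcgr3 (2627 and 1370.3) was above it.

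**Figure D5:**
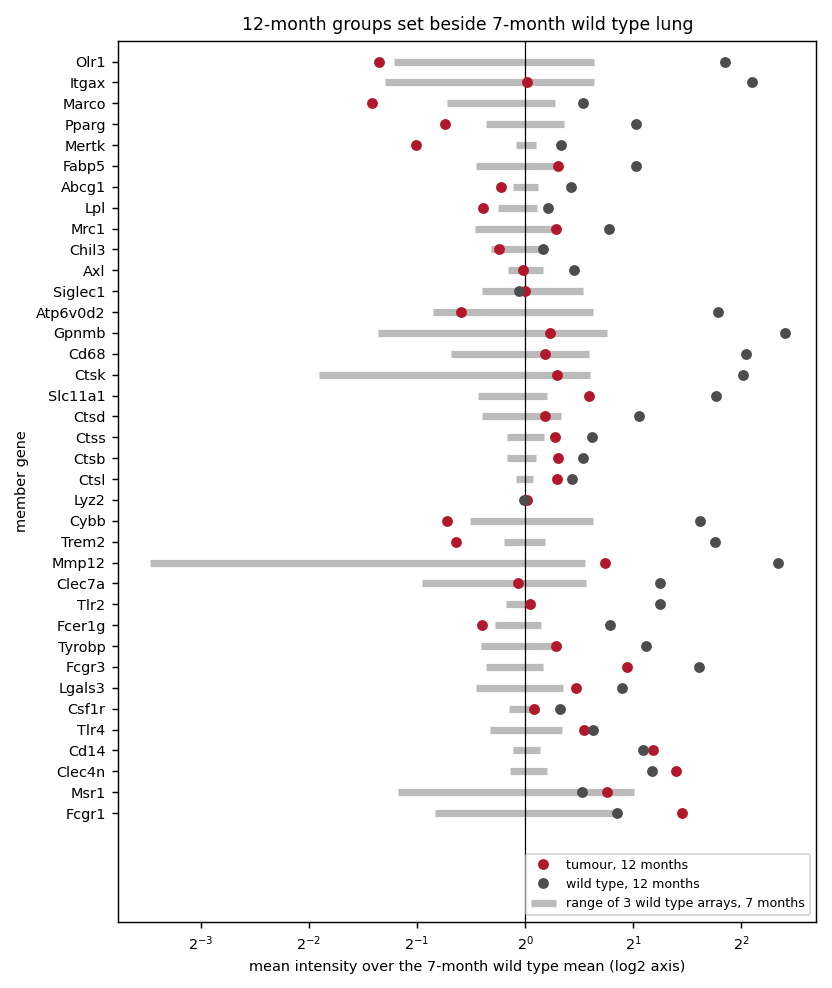
Mean intensity of each member in tumours and in 12-month wild type lung is divided by its mean in 7-month wild type lung (log2 axis), and grey bars give the range of the 3 wild type arrays at 7 months. Most 12-month wild type points lie right of the bars, while tumour means lie within them for 13 members, right of them for 15 and left of them for 9. Over all genes 23.6% were within, and the other shares were not counted.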

How the data were processed

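Probe set intensities on a linear scale were deposited by the authors for 15 arrays and 45101 probe sets; scanner, background correction and scaling are not given in the sources used here. Per the labels' protocols, RNA was extracted with TRIzol and RNeasy and labelled by the Affymetrix 3' IVT Express method, which reads mostly the 3' end of a transcript. Of the probe sets, 34958 name 1 gene in the platform annotation, 932 several, and 9211 are not listed. Symbols were looked up in RefSeq by gene number (34741 probe sets matched, 0 changed). Each gene was read from its brightest probe set by mean log2(intensity + 16) over the 15 arrays; probe sets naming several genes were left out. Between 17.1% and 21.1% of values lay below 16, so folds of dim genes are understated.

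Groups were compared on that log2 scale with limma 3.58.1 in R 4.3.3 (lmFit, eBayes, two-sided), adjusted by Benjamini-Hochberg over 18193 genes. The 12-month fit held 6 arrays and the 7-month fit 9. A further 7-month group of 3 arrays is not reported here; it entered the estimate of spread and the choice of probe sets. No 2 arrays were identical. The members and lists were chosen with earlier results of these data known, so no pattern counts as independent. Values per array are given for up to 6 called members per role at 12 months and every member called at 7 months or in the difference, and for up to 4 called genes per list and direction. Same-numbered arrays of the 7-month groups did not deviate together (r = -0.128, 0.025 and -0.085). The fits were tested on simulated data.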

Additional observations from a re-analysis of the deposited data

Results flagged for a closer look

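The change in tumours over 12-month wild type lung differed from the change in double mutant over wild type lung at 7 months for 7 members, by the limma contrast over all 15 arrays (adjusted p under 0.05). The difference of the log2 changes, tumour effect minus 7-month effect, was -3.13 for Olr1, -1.90 for Cybb, -1.85 for Trem2, -1.68 for Pparg, -1.22 for Fabp5, -1.19 for Tlr2 and -1.02 for Mertk. For Tlr2 the log2 change was -1.18 in tumours and 0.01 at 7 months, and for Mertk it was -1.33 and -0.31. Groups of 3 arrays are too small for a test of single outlying arrays, so none was made.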

How the results depend on the processing

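At 12 months the count of lower members (20) was 18 to 24 under another pseudocount, quantile normalization, median centring, other probe set choices, a filter on dim genes, a trended robust fit or all 15 arrays in 1 model. It was 9 with only the wild type array without Xist, an arm of 1 array assumed to vary like the other groups, and 10 to 18 with single arrays left out; the count of higher members (0) became 1 without tumour array 1 and ranged from 0 to 1. Fits with fewer arrays also have less power. At 7 months the count of lower members (1) was 0 with log2(intensity + 1), with all 15 arrays in 1 model, with only the 2 groups compared, with the replicate number as a block and without double mutant array 3 and wild type array 1. The count of higher members (1) was 0 with log2(intensity + 1), with median centring, with only the 2 groups compared, with the replicate block and without those 2 arrays; both ranged from 0 to 1 with single arrays left out. The 7-month numbers are not known to pair arrays. For the difference of effects, the count of members below 0 (7) was 4 with log2(intensity + 1). It was 1 without the 2 arrays high in F13a1 and Ccr2, and 2 to 10 with single arrays left out. Otherwise it was 6 to 9, apart from the fit with only the wild type array without Xist, an arm of 1 array. None was above 0. The Trem2 difference reversed to 0.30 without _x_at and _s_at probe sets, where another, near-background probe set stands for the gene. Of the 17 members not called at 12 months, 8 were called under some alternative. The number of arrays limits precision, and values below 16 carry little information on order.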

Other observations

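Myeloid genes outside the member list did not all move with it in tumours at 12 months. Clec10a, a lectin of dendritic cells and some macrophages, had 726, 659 and 875 intensity units in tumours and 194, 232 and 215 in wild type lung, and was 3.33-fold higher (limma, adjusted p = 0.00364). Other dendritic cell genes, Xcr1 (1.53-fold), Zbtb46 (1.64-fold) and Itgae (1.36-fold), were lower (adjusted p between 0.012 and 0.0321). Ltf, lactoferrin of neutrophil granules and of glandular epithelium, had 9941, 9363 and 9909 in tumours and 231, 2177 and 1805 in wild type lung. It was also higher at 7 months, with 2600.1, 5817 and 6764.5 in double mutant lung and 90.3, 436 and 398 in wild type lung (17.3-fold, adjusted p = 0.00234). S100a8, made by neutrophils and monocytes, did not pass at either age.

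The wild type groups differed more in Csf2ra than in the members. It had 3118, 2629 and 3458 in wild type lung at 12 months and 313, 337 and 257 in wild type lung at 7 months, without overlap. C1qa, a complement gene of interstitial macrophages, had 3061, 3194 and 3719 in tumours and 2799, 2189.8 and 3060.0 in wild type lung at 12 months (adjusted p = 0.213).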
